A study of Mus musculus with 21 samples.

Results

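Transcripts of splenic macrophages, monocytes and dendritic cells were followed in RNA from magnetically purified splenic T cells of the mouse. The set holds 34 of the 51201 genes listed in the CD4 and CD8 gene count tables, chosen by symbol and matched through their Ensembl identifiers. It covers 10 red-pulp macrophage genes, 6 complement and phagocyte genes, 8 monocyte and broad myeloid genes, 8 conventional dendritic cell genes and 2 plasmacytoid dendritic cell genes. All 34 were present in both tables. All mice were C57BL/6J, were 35 days old and carried CD4Cre+/-, so the controls had the recombinase too. Libraries came from L-gp130fl/+;CD4Cre+/- mice (6 CD4 and 3 CD8 libraries) and from CD4Cre+/- controls (6 CD4 and 6 CD8 libraries). L-gp130 is a form of gp130, the signalling chain shared by receptors of the interleukin-6 family, that is active without ligand. CD4Cre is driven by Cd4 regulatory sequences and is used to recombine alleles in the T cell lineage, which includes the precursors of CD8 cells. The CD4 cells had been caught on CD4-directed beads (positive selection), and the CD8 cells had been left behind by a cocktail that removes other cells (negative selection). Cell type, way of selection and library set therefore go together and cannot be told apart in any CD4 against CD8 value.

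The red pulp of the spleen holds macrophages that take up old red cells, break down heme and return the iron to the blood. The transcription factor SPIC drives their development, HMOX1 opens the heme ring, and ferroportin, the product of Slc40a1, exports the iron. Conventional dendritic cells present antigen to T cells and fall into a cross-presenting type that carries XCR1 and CLEC9A and a second type that carries CLEC4A4 in the spleen. Plasmacytoid dendritic cells are known for their output of type I interferon and carry SIGLECH in the mouse. CD4 protein itself is found in the mouse on plasmacytoid dendritic cells and on a subset of conventional dendritic cells, besides T cells.

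Total estimated counts per library were 17781325 to 21226374 in the L-gp130 CD4 group and 27855745 to 35869240 in the control CD4 group, without overlap, and 17217503 to 19476944 over the CD8 libraries. Cd4 followed the selections. It reached from 520 to 785 CPM (counts scaled to the library total, here from Salmon reads summed per gene) in the CD4 libraries and from 3.62 to 13.4 CPM in the CD8 libraries. The genotype labels were checked on Socs3, a direct target of gp130 and STAT3 signalling, which had log2 fold changes of 1.55 ± 0.119 in CD4 and 1.78 ± 0.117 in CD8 libraries (L-gp130 minus control, ± SE). Of the other check genes, Stat3 rose in both selections. Il6st, which encodes gp130, went the other way, at -0.319 in CD4 (not called) and -0.515 in CD8 libraries (called). Every L-gp130 library lay below every control for Il6st in both selections. The part of the deeper control CD4 libraries in the CD4 values was not tested. One CD4 library stood apart: L-gp130 CD4 replicate 1 held 93.7 CPM of Cd8a, against 15.1 to 29.6 CPM in the other 5 L-gp130 CD4 libraries. Summed MHC class II genes stood at 6887 CPM there against 1717 to 3250 CPM in the other 5. Control CD4 replicate 5 is labelled female and its Xist and Ddx3y counts read male. Both libraries were kept, and the CD4 results are also given without them. In these bulk libraries fewer cells of a type and less RNA per cell cannot be told apart.

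Promoter sequence is shown for 3 macrophage members that fell in the CD8 comparison, as examples chosen because they hold the letters searched for. Of the 15 members that fell there 10 had an entry, 7 of them with the letters and 3 (Stab2, Spic and Mertk) without. Each run is the 250 bases before the RefSeq start (GRCm38.p6), 5′ to 3′ on the strand of the gene. Capitals mark GAGGAA or its reverse complement TTCCTC, the core letters of sites for the SPI group of factors, to which PU.1 and SPIC belong. Cd5l lies at chr3:87357631-87357880 (plus strand), Mrc1 at chr2:14229164-14229413 (plus strand) and C1qb at chr4:136886201-136886450 (minus strand).
Cd5l: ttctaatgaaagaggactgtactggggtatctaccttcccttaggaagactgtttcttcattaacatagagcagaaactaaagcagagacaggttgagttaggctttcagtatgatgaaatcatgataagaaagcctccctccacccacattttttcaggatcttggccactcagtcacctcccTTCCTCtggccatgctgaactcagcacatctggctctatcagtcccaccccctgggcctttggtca
Mrc1: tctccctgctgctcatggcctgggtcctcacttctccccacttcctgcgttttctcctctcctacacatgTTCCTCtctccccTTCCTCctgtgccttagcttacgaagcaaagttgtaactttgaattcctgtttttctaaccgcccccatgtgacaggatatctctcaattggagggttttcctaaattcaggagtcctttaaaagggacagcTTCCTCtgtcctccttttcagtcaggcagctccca
C1qb: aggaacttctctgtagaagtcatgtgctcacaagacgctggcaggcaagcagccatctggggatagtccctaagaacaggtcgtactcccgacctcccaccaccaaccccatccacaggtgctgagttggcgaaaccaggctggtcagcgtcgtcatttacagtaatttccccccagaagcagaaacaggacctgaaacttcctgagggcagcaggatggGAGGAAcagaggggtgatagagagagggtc
The match began 66 bases before the start in Cd5l and 30 bases before it in C1qb. In Mrc1 there were 3 matches, at 180, 167 and 35 bases. Of the 34 members 24 had an entry in the promoter table, and 9 of the 24 (37.5%) held the letters on either strand, beside 6252 of 27025 promoters of all genes (23.1%). A match of 6 letters is a description of the window and does not show binding.

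In the control CD4 libraries Lyz2, the lysozyme of macrophages and granulocytes, had the highest level per length of the 34 genes, at 364 ± 58.8 TPM (Salmon's abundance per transcript length, SD, n = 6). Tyrobp, an adaptor for activating receptors of myeloid and NK cells, followed at 223 ± 27.4 TPM and Hmox1 at 192 ± 59.2 TPM. The complement genes C1qa, C1qb and C1qc lay within each other's SD, at 114 ± 40.3, 112 ± 35.2 and 102 ± 34.6 TPM. Lyz2 also led in the other 3 groups, at 432 ± 316 TPM in L-gp130 CD4 (n = 6), 343 ± 130 TPM in control CD8 (n = 6) and 322 ± 80.9 TPM in L-gp130 CD8 libraries (n = 3). The next places differed between selections. Tyrobp and Fcer1g, adaptors that NK cells also carry, held places 2 and 3 in both CD8 groups, and Hmox1 stood at 42.5 ± 12.3 TPM in control CD8 and 11.1 ± 1.98 TPM in L-gp130 CD8 libraries.

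**Figure D1:**
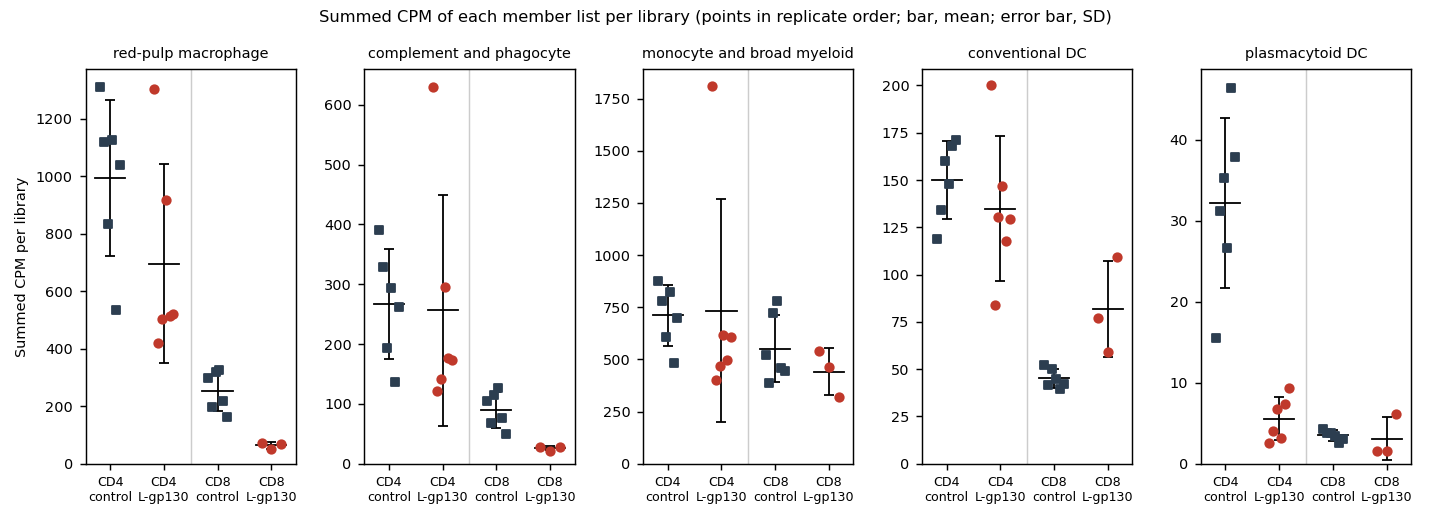
Summed CPM of each of the 5 gene lists per library (y axes, linear, starting at 0) in the 4 groups (x axes), with the CD4 and CD8 tables normalised separately. Points are libraries, bars the mean and error bars the SD; the red-pulp sum of the 3 L-gp130 CD8 libraries lies at 49.4 to 73.3 CPM, below all 6 controls at 161 to 328 CPM.

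The genotype comparison in CD4 libraries asked which of these genes differed between L-gp130 and control mice when cells were caught by CD4. No member rose and 7 of 34 fell at an adjusted p under 0.05: the plasmacytoid genes Siglech and Cd300c, the red-pulp genes Mrc1, Axl, Stab2 and Slc40a1, and the dendritic cell gene Clec10a. Of all 15016 genes tested, 11.1% rose and 7.75% fell, and 20.6% of the members fell. At an unadjusted p under 0.05, 11 members were lower and 0 higher, beside 14.8% of all genes lower and 18.6% higher. Without regard to direction, 33.4% of all genes passed at that level, a share close to 11 of 34. DESeq2 called 11 members lower and 0 higher, beside 10.3% of all genes lower and 14% higher. Their median log2 fold change was -0.58, beside -0.01 over all genes tested, and 30 of the 34 values were below 0. Fold changes are log2 values of L-gp130 minus control with the labelled sex in the model, and p-values are adjusted over all genes tested. Replicate 1 is the only control CD4 library labelled male, while 4 of the 6 L-gp130 CD4 libraries are, so sex and genotype are not balanced. That control was also the highest of its group for 14 of the 16 macrophage and complement genes. Without sex in the model 7 members fell, 6 of them as before, and 4155 genes were called over all, against 2836 with it. With sex in the model a fold change is not the plain difference of the group levels. The labels name mice by number in each group, so the libraries are taken as separate animals.

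Siglech, a sialic acid-binding receptor of plasmacytoid dendritic cells, had the largest fall of the 34. It stood at 2.15, 3.83, 6.15, 2.52, 7.10 and 8.64 CPM in the 6 L-gp130 CD4 libraries and at 14.6, 29.5, 33.6, 25.2, 43.8 and 35.9 CPM in the 6 controls, in replicate order. The groups did not overlap, and the log2 fold change was -2.17 ± 0.384 (adjusted p = 0.00286). Cd300c, of the CD300 receptor family, lay at 0.441, 0.252, 0.573, 0.603, 0.300 and 0.687 CPM in L-gp130 and 0.922, 1.69, 1.70, 1.47, 2.62 and 1.98 CPM in control libraries, again without overlap (-1.60 ± 0.372, adjusted p = 0.0104). The order of the controls was alike in both genes, with replicate 1 lowest and replicate 5 highest. Of 10 further plasmacytoid genes 6 fell and 1 rose. The 3 with the smallest p were Cox6a2 (-1.85 ± 0.285), Spib (-1.43 ± 0.291) and Tcf4 (-0.88 ± 0.215), of which Spib and Tcf4 encode factors that B cells also use. Beside them, all 10 B cell genes were below 0, with a median of -1.08. In that list edgeR called 4 lower and DESeq2 7, and 9 were lower at an unadjusted p under 0.05, with the smallest p for Fcrla (-1.34 ± 0.309), Fcer2a (-1.49 ± 0.404) and Cd79b (-1.27 ± 0.372), and the B cell sum ranged from 270 to 675 CPM in L-gp130 and from 290.1 to 1077 CPM in control libraries. The part of B cell RNA in the plasmacytoid values was not tested.

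Among the red-pulp genes all 10 log2 fold changes, with sex in the model, were below 0, with a list median of -0.88, and 4 passed the test. Not every L-gp130 library was low. L-gp130 replicate 1 held 2966 counts of Cd5l and 1257 of Spic, above every control (790 to 1949 and 451 to 1158). Mrc1, the mannose receptor, stood at 24.7, 17.8, 15.8, 46.5, 22.2 and 21.9 CPM in L-gp130 and 91.1, 62.4, 41.8, 58.6, 27.9 and 64.3 CPM in control libraries. L-gp130 replicate 4, the highest of its group, overlapped with control replicates 3 and 5, and the fold change was -1.50 ± 0.307 (adjusted p = 0.00649). Stab2 encodes stabilin-2, a scavenger receptor for hyaluronan that is best known from sinusoidal endothelium. Its level was 56.9, 47.7, 55.6, 83.3, 56.9 and 44.7 CPM in L-gp130 and 90.3, 77.2, 110.2, 119, 80.6 and 94.0 CPM in control libraries, and again L-gp130 replicate 4 alone reached into the control range (-0.87 ± 0.175, adjusted p = 0.00528). Axl, a receptor for the uptake of dying cells, was at 132, 51.4, 57.0, 106, 64.1 and 66.3 CPM against 186, 161, 116, 159.6, 77.2 and 156 CPM (-1.14 ± 0.281, adjusted p = 0.0168). L-gp130 replicates 1 and 4 lay within the control range for Axl. Slc40a1 stood at 152, 56.2, 74.2, 105, 61.5 and 95.3 CPM in L-gp130 and at 188, 165, 132, 172, 81.4 and 172 CPM in control libraries (-0.93 ± 0.293, adjusted p = 0.0468). L-gp130 replicates 1, 4 and 6 lay within the control range for Slc40a1, and its call was lost in 12 of 21 alternative fits, with adjusted p from 0.0513 to 0.17.

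The other 6 red-pulp genes did not pass the test in CD4 libraries. The adhesion molecule gene Vcam1 was at 86.2 to 226 (median 120.3) CPM in L-gp130 and 96.0 to 305 (median 207) CPM in control libraries (-0.86 ± 0.311, adjusted p = 0.079). Hmox1 reached 78.6 to 359 (median 96.3) CPM in L-gp130 libraries and 85.2 to 255 (median 207) CPM in controls (-0.92 ± 0.448). Cd5l, a secreted scavenger protein of macrophages, had the value nearest to 0 (-0.12 ± 0.461), with 163 CPM in L-gp130 replicate 1 and 29.6 to 76.6 CPM in the other 5. Spic, Mertk and Adgre1, the last of which encodes F4/80, had fold changes of -0.63 ± 0.487, -0.90 ± 0.39 and -0.68 ± 0.291. Of 11 further splenic macrophage genes tested 6 fell and none rose (0 higher at an unadjusted p under 0.05 or with DESeq2), with the smallest p for the ficolin gene Fcna (-1.47 ± 0.285), Hpgd (-1.05 ± 0.218) and the hemoglobin scavenger receptor gene Cd163 (-2.08 ± 0.428). In the same libraries 5 of 10 stroma and endothelium genes fell, with the smallest p for Col14a1 (-2.28 ± 0.290), Cxcl12 (-1.70 ± 0.239) and Col3a1 (-2.48 ± 0.416). The sum of that list ran from 174 to 232 CPM in L-gp130 and from 293 to 359 CPM in control libraries, without overlap. Pecam1, which T cells and myeloid cells also express, made the largest part of it, with 2380 to 3711 counts in L-gp130 and 7041 to 9165 in control libraries. These counts are not scaled to the library totals, which were larger in every control, so their gap overstates the difference in level. The sum is therefore not a level of stroma alone, though all 10 genes tested had fold changes below 0. The part of stroma in the Stab2, Mrc1 and Vcam1 values was not tested. Lyve1, a marker of lymphatic endothelium, stayed at or below 0.165 CPM in all 12 libraries.

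None of the 6 complement and phagocyte genes and none of the 8 monocyte genes passed edgeR's test in CD4 libraries, 0 of either list did at an unadjusted p under 0.05, and DESeq2 called 0. C1qa, C1qb and C1qc, which encode the 3 chains of complement C1q, had fold changes of -0.71 ± 0.448, -0.46 ± 0.469 and -0.61 ± 0.417. C1qb held 208, 34.4, 41.0, 83.5, 53.3 and 53.5 CPM in L-gp130 libraries and 36.9 to 108 (median 76.8) CPM in controls, so that L-gp130 replicate 1 lay above all controls and replicate 2 below all of them. C1qa ran at 33.9 to 174 (median 45.6) CPM and 34.5 to 120.2 (median 80.0) CPM in the same groups. Lyz2 stood at 950.0, 200.2, 258, 244, 245 and 301 CPM in L-gp130 and 212 to 352 (median 282) CPM in control libraries (0.01 ± 0.416). Csf1r, the receptor for the growth factor of monocytes and macrophages, ran at 72.9 to 324 (median 121) CPM and 108 to 280.0 (median 232) CPM (-0.76 ± 0.402, adjusted p = 0.214). Among 14 further monocyte genes and 7 MHC class II genes edgeR and DESeq2 called 0, and 0 passed an unadjusted p under 0.05. Of 5 Fc receptor pathway genes edgeR called 0 and DESeq2 1, with 2 at an unadjusted p under 0.05.

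Of the 8 conventional dendritic cell genes only Clec10a, a lectin gene, passed the test in CD4 libraries. Its level was low throughout, at 1.38, 0.858, 1.04, 1.26, 1.55 and 2.06 CPM in L-gp130 and 3.20, 4.29, 4.58, 3.09, 4.45 and 3.91 CPM in control libraries, without overlap (-1.40 ± 0.253, adjusted p = 0.00247). Cd209a, a homologue of DC-SIGN, did not overlap either, at 0.331, 3.73, 4.80, 7.19, 6.25 and 5.64 CPM against 9.11, 10.5, 10.3, 10.1, 11.5 and 11.7 CPM, but missed the threshold (-1.12 ± 0.512, adjusted p = 0.15). The 4 members without overlap, all lower in L-gp130, were Siglech, Cd300c, Clec10a and Cd209a, and 5.85% of all genes tested had every L-gp130 library below every control. Itgax, which encodes CD11c, stood at 39.7 to 91.0 (median 72.9) CPM and 57.9 to 86.7 (median 78.9) CPM (-0.22 ± 0.228). Flt3, a cytokine receptor gene that dendritic cells need for their development, was at 19.5 to 23.8 (median 22.7) CPM against 23.0 to 35.8 (median 28.7) CPM (-0.32 ± 0.115, adjusted p = 0.0673). Xcr1 ran from 1.77 to 5.55 CPM in 5 L-gp130 libraries and Clec9a from 2.12 to 6.20 CPM, while L-gp130 replicate 1 held 31.3 and 33.3 CPM. Zbtb46 and Clec4a4 had fold changes of 0.01 ± 0.203 and -0.11 ± 0.274. Of 10 further conventional dendritic cell genes 1 fell, Kmo (-0.78 ± 0.151).

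**Figure D2:**
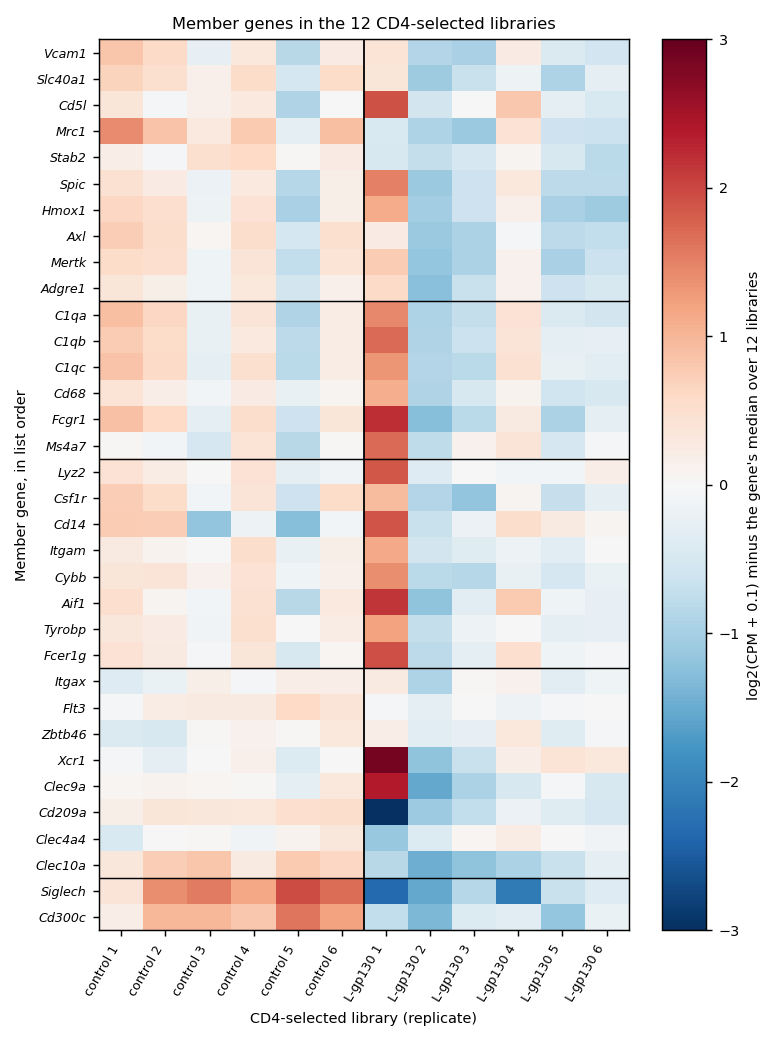
Level of the 34 genes (rows, in list order) in the 12 CD4 libraries (columns), as log2(CPM + 0.1) minus the median of the gene over the 12; the colour scale is capped at 3 in both directions. L-gp130 replicate 1 is high across macrophage and monocyte rows (Lyz2 at 950 CPM) and low for Cd209a (0.331 CPM), and both plasmacytoid rows are low in all L-gp130 columns.

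The libraries were not alike within a group. L-gp130 CD4 replicate 1 was the highest of its 6 for 14 of the 16 macrophage and complement genes and for all 8 monocyte genes. Among the 10 dendritic cell genes it was the highest for 3 (Itgax, Xcr1 and Clec9a) and the lowest for 3. Control CD4 replicate 5 was the lowest of its 6 for 15 of the 16 and for 7 of the 8. Among the 10 dendritic cell genes it was the highest for 4 and the lowest for 2 (Xcr1 and Clec9a). Control CD4 replicate 1 was the highest for 14 of the 16 and the lowest for 6 of 10 dendritic cell genes. With L-gp130 replicate 1 and control replicate 5 both removed, 23 of the 34 members fell and none rose, beside 9.98% of 15032 genes that fell. They were 9 of 10 red-pulp genes (all but Cd5l), 5 of 6 complement and phagocyte genes (all but Ms4a7), 4 of 8 monocyte genes, 3 of 8 conventional dendritic cell genes and both plasmacytoid genes. All 7 members called over the 12 libraries were among the 23. Hmox1 then had a log2 fold change of -1.22 ± 0.24 (adjusted p = 0.0069), C1qa of -1.03 ± 0.257 and Lyz2 of -0.31 ± 0.136 (adjusted p = 0.124). Leaving out L-gp130 replicate 1 alone gave 17 members, beside 10.7% of 15451 genes that fell, and leaving out control replicate 5 alone gave 8, beside 6.59% of 14906 genes. These libraries lay at the high end of L-gp130 and at the low end of the controls for most macrophage genes, so leaving them out moves the difference downward by construction.

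In CD8 libraries 32 of the 34 members passed the filter on low counts, the exceptions being Clec4a4 and Cd300c. Of the 32, 15 fell (46.9%) and 1 rose, beside 10.5% of 14254 genes that fell and 10.5% that rose. Those that fell were 9 of 10 red-pulp genes, C1qa, C1qb, C1qc and Fcgr1, and the myeloid genes Aif1 and Tyrobp, and the 1 that rose was Itgax. In 14 members every L-gp130 library was below every control, against 12.4% of all genes tested. The median log2 fold change was -0.94 over the members and -0.01 over all genes. Only 3 L-gp130 libraries stood against 6 controls here.

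Stab2 and Mrc1 had the largest falls in CD8 libraries. Stab2 stood at 1.06, 0.405 and 1.77 CPM in the 3 L-gp130 libraries and 11.5, 3.68, 11.3, 8.04, 5.22 and 7.99 CPM in the 6 controls (-2.94 ± 0.455, adjusted p = 0.00187), from 8 to 31 counts in each L-gp130 library and 66 to 218 in each control. Summed Salmon reads of Stab2 were 13 to 16 and 41 to 122 in the same libraries, a ratio of table to reads of 0.615 to 3.54, and gave a fold change of -2.70 (adjusted p = 0.000367). The scaling of the gene tables is not stated in the labels. Table and summed reads differed by over 1.5 times in at least 1 CD8 library for 7 of the 34 members (Stab2, Adgre1, Fcgr1, Ms4a7, Csf1r, Clec9a and Siglech) and in no CD4 library. Mrc1 was at 2.12, 2.08 and 2.57 CPM against 16.4, 12.5, 20.8, 25.0, 13.8 and 8.65 CPM (-2.84 ± 0.353, adjusted p = 0.000701). The highest L-gp130 value of Mrc1 was 2.57 CPM and the lowest control value 8.65 CPM. Vcam1 was at 9.14, 7.55 and 14.9 CPM against 72.6, 49.8, 87.4, 74.2, 48.5 and 33.4 CPM (-2.57 ± 0.356, adjusted p = 0.00175). Hmox1 was at 14.6, 10.7 and 12.2 CPM in L-gp130 and 65.1, 40.5, 64.3, 57.3, 40.3 and 30.6 CPM in control libraries (-1.99 ± 0.270, adjusted p = 0.00136). The iron exporter Slc40a1 fell with it, from 25.5 to 48.2 (median 40.2) CPM in controls to 17.1, 11.3 and 7.21 CPM (-1.71 ± 0.269, adjusted p = 0.00249).

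The uptake receptor genes Axl and Mertk both fell in CD8 libraries. Axl lay at 14.6, 8.56 and 13.4 CPM in L-gp130 and 29.4 to 61.5 (median 44.4) CPM in control libraries (-1.84 ± 0.267, adjusted p = 0.00179). Mertk lay at 0.959, 1.17 and 0.915 CPM against 3.14 to 9.14 (median 4.64) CPM (-2.44 ± 0.402, adjusted p = 0.00238). Spic, which encodes the red-pulp macrophage factor, was at 1.51, 1.42 and 2.17 CPM against 4.19 to 8.10 (median 6.32) CPM (-1.89 ± 0.312, adjusted p = 0.00235). Cd5l was at 4.59, 1.72 and 3.49 CPM against 6.17 to 16.3 (median 10.9) CPM (-1.75 ± 0.362, adjusted p = 0.00795). Adgre1 alone of the 10 red-pulp genes did not pass, with 7.57, 4.46 and 10.2 CPM against 8.81 to 22.3 (median 12.8) CPM, values that overlap (-0.91 ± 0.320, adjusted p = 0.0712). Of 11 further splenic macrophage genes 7 fell and none rose (0 higher at an unadjusted p under 0.05 or with DESeq2), with the smallest p for Fcna (-2.63 ± 0.346), Hpgd (-1.99 ± 0.286) and Cd163 (-2.41 ± 0.450). Vsig4, a macrophage complement receptor, was near absent from both groups and was not tested. It had 2 counts in control replicate 4 (0.116 CPM) and 0 in every other control and in all 3 L-gp130 libraries. The stroma and endothelium sum ran from 77.9 to 80.6 CPM in L-gp130 and from 119 to 149 CPM in control CD8 libraries, but Pecam1, which T cells and myeloid cells also express, made up 91.4 to 96.7% of it. Without Pecam1 the sum was 5.05 to 6.81 CPM in L-gp130 and 4.35 to 10.2 CPM in control libraries, and the groups overlapped. Of the 5 genes of the list that were tested 2 fell, Pecam1 (-0.76 ± 0.074) and Col14a1 (-4.28 ± 0.655). The other 3 were above 0, and Cdh5 (1.40 ± 0.454, adjusted p = 0.0512) and Col1a1 (1.43 ± 0.505, adjusted p = 0.0683) had all 3 L-gp130 libraries above all 6 controls without passing the test. The part of stroma in the Stab2 and Vcam1 values was not tested.

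The 3 C1q genes lie side by side on chromosome 4 (GRCm38), from 136880129 for the end of C1qb to 136898803 for the start of C1qa, all on the minus strand. C1qa stood at 3.74, 3.90 and 3.60 CPM in the 3 L-gp130 CD8 libraries and 30.0, 18.1, 31.4, 37.8, 23.8 and 11.9 CPM in the 6 controls (-2.76 ± 0.360, adjusted p = 0.0011). C1qb was at 4.54, 3.29 and 4.81 CPM against 12.7 to 33.7 (median 24.7) CPM (-2.51 ± 0.351, adjusted p = 0.00152). C1qc was at 4.44, 2.89 and 5.03 CPM against 12.5 to 32.9 (median 23.6) CPM (-2.53 ± 0.371, adjusted p = 0.00184). In all 3 the groups were apart, and the fold changes differed by less than their SE. Fcgr1, the high-affinity IgG receptor gene, was at 2.27, 2.28 and 1.32 CPM against 2.59 to 6.36 (median 2.90) CPM (-0.97 ± 0.312, adjusted p = 0.0491), and its call was lost in 11 of 17 alternative fits (adjusted p up to 0.239). Cd68, a lysosomal protein gene of phagocytes, and Ms4a7 had values of -0.11 ± 0.250 and -0.45 ± 0.644.

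Of the 8 monocyte and broad myeloid genes 2 fell in CD8 libraries, and the list median was -0.28. Tyrobp was at 27.3, 26.4 and 21.4 CPM in L-gp130 and 24.4 to 50.6 (median 41.4) CPM in control libraries (-0.69 ± 0.191, adjusted p = 0.0288), with the groups overlapping through control replicate 6. Aif1, the gene of a calcium-binding protein of macrophages, was at 1.92, 1.57 and 0.801 CPM against 1.82 to 5.08 (median 3.50) CPM (-1.26 ± 0.396, adjusted p = 0.045), and its call was lost in 7 of 17 alternative fits (adjusted p up to 0.208). Lyz2 was at 323, 288 and 194 CPM against 182 to 452 (median 247) CPM (-0.13 ± 0.317). Csf1r was at 79.7, 47.3 and 26.4 CPM against 74.1 to 132 (median 103) CPM and just missed the threshold (-1.06 ± 0.325, adjusted p = 0.0505). Itgam, Cybb, Fcer1g and Cd14 had fold changes of -0.27 ± 0.162, -0.27 ± 0.278, -0.28 ± 0.184 and 0.40 ± 0.435. Of 14 further monocyte genes 1 fell, Ly6c2 (-0.67 ± 0.108), which CD8 T cells also express. In these libraries 6 of 11 T cell genes fell as well, with the smallest p for Cd2 (-0.62 ± 0.07), Cd247 (-0.60 ± 0.076) and Cd8b1 (-0.67 ± 0.099).

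Itgax was the member that rose in CD8 libraries. It stood at 63.6, 47.1 and 93.9 CPM in the 3 L-gp130 libraries and 31.8, 24.9, 29.5, 32.5, 28.6 and 31.7 CPM in the 6 controls, without overlap (1.16 ± 0.150, adjusted p = 0.000794). CD11c is also carried by NK cells and by activated CD8 T cells. None of the other 6 conventional dendritic cell genes tested passed the test: Xcr1 lay at 1.82, 1.77 and 1.49 CPM against 1.14 to 1.98 (median 1.84) CPM, and Clec9a at 1.01, 1.17 and 1.03 CPM against 0.435 to 1.97 (median 0.970) CPM. Flt3, Zbtb46, Clec10a and Cd209a had fold changes of -0.22 ± 0.349, 0.30 ± 0.332, 0.18 ± 0.400 and -1.02 ± 0.355. Cd209a had all 3 L-gp130 libraries below all controls without passing the test (adjusted p = 0.0659). Of 7 NK cell genes 3 fell, Ncr1 (-1.15 ± 0.178), Klri2 (-1.26 ± 0.237) and Klre1 (-0.62 ± 0.180), and 1 rose, the granzyme gene Gzma (0.90 ± 0.164). The sum of the 7 was 334 to 476 CPM in L-gp130 and 277 to 388 CPM in control libraries. Gzma made the largest part of it in each L-gp130 library, with 3620 to 4905 counts against 1640 to 2757 in controls. The other 6 genes had fold changes below 0, so the higher sum is not a rise of the list as a whole. The part of NK cells in the Itgax value was not tested. Siglech overlapped between the groups, at 1.41, 1.37 and 5.72 CPM and 3.68, 3.62, 3.21, 3.30, 2.23 and 2.81 CPM (-0.36 ± 0.409, adjusted p = 0.568), and Cd300c was under 0.6 CPM in all 9 libraries. Of the further plasmacytoid genes 8 were tested in CD8 libraries, where 2 fell and 1 rose. Of the further conventional dendritic cell genes 10 were tested there, and 1 fell and 1 rose.

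**Figure D3:**
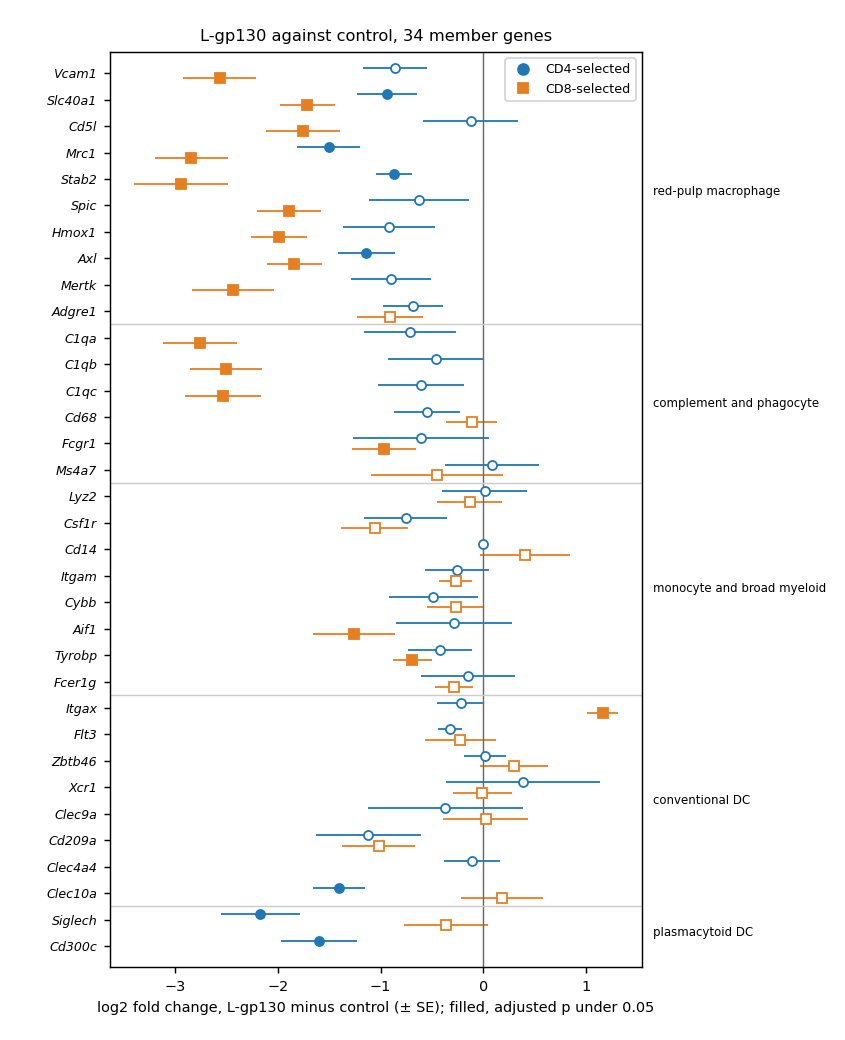
log2 fold change of L-gp130 minus control (x axis, ± SE) for the 34 genes (y axis, grouped by list) in CD4 libraries (circles) and CD8 libraries (squares), with filled symbols where the adjusted p was under 0.05. The SE is not drawn for values nearer to 0 than 0.01, and Clec4a4 and Cd300c have no CD8 value. The 9 filled red-pulp squares lie between -1.71 and -2.94, and both plasmacytoid circles are filled.

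Positive and negative selection were compared in control mice on Salmon reads summed per gene, in 1 fit over all 21 libraries. The CD4 libraries held more of nearly every macrophage and dendritic cell transcript: 28 of the 34 members were higher (82.4%) and 1 was lower. Among all 15750 genes tested 24.3% were higher and 27.2% were lower in CD4 libraries. The members' median log2 difference was 1.78 (CD4 minus CD8), beside -0.02 over all genes. All 10 red-pulp genes, 5 of 6 complement and phagocyte genes, all 8 conventional dendritic cell genes, both plasmacytoid genes and 3 of 8 monocyte genes were higher. This comparison shares its libraries with the genotype comparisons above.

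Clec4a4, the lectin gene of splenic conventional dendritic cells of the second type, had the largest difference. It was at 2.79 to 4.88 (median 3.80) CPM in control CD4 libraries and 0 to 0.228 (median 0.114) CPM in control CD8 libraries (4.92 ± 0.388, adjusted p = 2.20e-09), with at most 4 counts in any control CD8 library. Stab2, here from summed reads and so not on the scale of the CD8 gene table, was at 67.2 to 111 (median 89.0) CPM against 2.34 to 7.27 (median 5.70) CPM (4.17 ± 0.239, adjusted p = 8.72e-11). Zbtb46, a transcription factor gene of conventional dendritic cells that endothelium also expresses, was at 11.5 to 19.7 (median 16.4) CPM against 1.77 to 3.32 (median 2.33) CPM (2.63 ± 0.214). Siglech was at 13.1 to 40.3 (median 30.9) CPM against 1.88 to 4.07 (median 2.95) CPM (2.78 ± 0.375, adjusted p = 5.63e-06). In each of these 4 genes every CD4 control lay above every CD8 control. The other 9 red-pulp genes differed by 1.71 to 2.25, and C1qa, C1qb and C1qc by 1.82 ± 0.384, 1.77 ± 0.402 and 1.75 ± 0.379. Cd300c, Flt3 and Clec9a differed by 1.92 ± 0.382, 2.20 ± 0.227 and 2.78 ± 0.604. For Xcr1 (1.41 ± 0.562, adjusted p = 0.0429) the call was lost in 14 of 21 alternative fits, with adjusted p from 0.0501 to 0.0872.

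Of the 8 monocyte and broad myeloid genes 4 did not pass the test and 1 was lower in CD4 libraries. Lyz2 was at 207 to 342 (median 271) CPM in control CD4 and 193 to 459.8 (median 256) CPM in control CD8 libraries, and its log2 difference was 0.00 ± 0.355. Cd14, Fcer1g, Tyrobp and the phagocyte gene Fcgr1 did not pass either, at 0.00, 0.20 ± 0.346, 0.42 ± 0.253 and 0.89 ± 0.523. Itgam, the gene of CD11b, which NK cells also carry, was the member lower in CD4 libraries, at 15.9 to 24.0 (median 20.5) CPM against 27.5 to 43.1 (median 28.8) CPM (-0.62 ± 0.244, adjusted p = 0.0392), a call lost in 12 of 21 alternative fits (adjusted p up to 0.181). Itgam and Itgax lie close together on chromosome 7, starting at 128062640 and 128129547 (GRCm38, plus strand), and Itgax was higher in CD4 libraries (1.22 ± 0.187). Csf1r, Cybb and Aif1 were higher in CD4 libraries, by 1.38 ± 0.323, 1.21 ± 0.361 and 1.96 ± 0.448. Of 14 further monocyte genes 4 were higher, among them Sirpa (2.03 ± 0.290), and 7 were lower, among them Ly6c2 (-3.50 ± 0.509).

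Other cells' genes went with the selection too. All 10 B cell genes and all 7 MHC class II genes tested were higher in control CD4 libraries, with list medians of 3.97 and 3.55, as were 9 of 10 stroma and endothelium genes and 8 of 11 erythroid genes. All 7 NK cell genes were lower, with a median of -3.33. By smallest p the stroma list began with Cdh5 (5.65 ± 0.249), Col1a2 (5.60 ± 0.339) and Cxcl12 (6.70 ± 0.422), and the NK list with Prf1 (-2.13 ± 0.113), Ncr1 (-3.33 ± 0.313) and Gzma (-3.92 ± 0.374). Of the further dendritic cell genes, 8 of 10 conventional ones were higher, with the smallest p for Wdfy4 (3.11 ± 0.178), Fscn1 (3.39 ± 0.220) and Kmo (3.38 ± 0.222). The part of these cells in the member values was not tested.

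In L-gp130 mice 24 of the 34 members were higher in CD4 than in CD8 libraries (70.6%) and none was lower, beside 24.9% and 22.9% of all genes tested. At an unadjusted p under 0.05, 25 members were higher and 0 lower, and DESeq2 called 26 higher and 0 lower, beside 28% and 27.8% of all genes that were higher by these rules. All 10 red-pulp genes were higher again, with a list median of 3.49 (2.11 in controls), and Stab2 reached 6.20 ± 0.371 (adjusted p = 4.57e-10). C1qa, C1qb and C1qc differed by 4.01 ± 0.568, 4.01 ± 0.591 and 3.85 ± 0.557. Of the 29 members called in controls 5 were not called here: Itgax (0.13 ± 0.204), Clec10a (-0.48 ± 0.318), Siglech (0.78 ± 0.420), Cd300c (0.79 ± 0.492) and Itgam (-0.55 ± 0.276). Whether the difference itself changed with genotype is a separate test, given next. Cybb was called (1.07 ± 0.426, adjusted p = 0.0471), but without L-gp130 CD4 replicate 1 and control CD4 replicate 5 its value was 0.50 (adjusted p = 0.115).

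**Figure D4:**
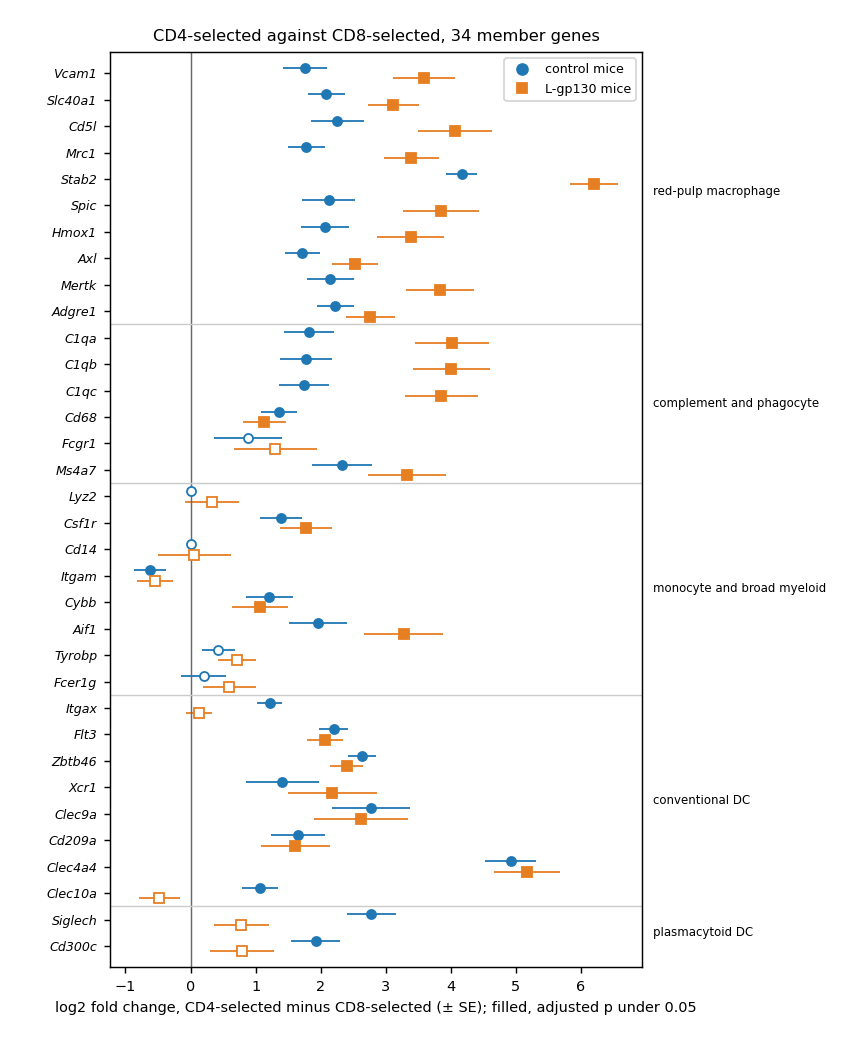
log2 difference of CD4 minus CD8 libraries (x axis, ± SE) for the 34 genes (y axis, grouped by list) in control mice (circles) and L-gp130 mice (squares), with filled symbols where the adjusted p was under 0.05. The SE is not drawn for values nearer to 0 than 0.01. All red-pulp symbols are filled and lie to the right of 0, while Lyz2 and Cd14 lie at or near 0 in controls.

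The interaction tested whether the genotype difference of a member differed between CD4 and CD8 libraries. It was called for 3 of the 34 members, beside 3.45% of all genes tested, and 14 members had an unadjusted p under 0.05, beside 17.5% of all genes. Stab2 fell less in CD4 than in CD8 libraries (2.03 ± 0.451, adjusted p = 0.0162). Clec10a ran at 3.04 to 4.61 (median 4.02) CPM in control CD4 and 0.835 to 2.08 (median 1.23) CPM in L-gp130 CD4 libraries, but at 0.741 to 2.77 (median 1.54) CPM in control CD8 and 1.90, 1.12 and 2.57 CPM in L-gp130 CD8 libraries (-1.55 ± 0.423, adjusted p = 0.0456). Itgax, which rose in CD8 libraries, had an interaction of the same sign (-1.08 ± 0.280, adjusted p = 0.0369). Siglech (-2.0 ± 0.568, adjusted p = 0.0606), C1qa (2.19 ± 0.655, adjusted p = 0.0755), Vcam1 (1.83 ± 0.549, adjusted p = 0.0766) and Mrc1 (1.61 ± 0.498, adjusted p = 0.0834) missed the threshold. Each of the 3 calls was lost in some alternative fits, Stab2 in 3 of 30, Itgax in 16 and Clec10a in 17, and without L-gp130 CD8 replicate 1 edgeR called no member, with 13 at an unadjusted p under 0.05 beside 13.3% of all genes. Over all 21 libraries DESeq2 called 10 members, beside 6.07% of all genes.

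**Figure D5:**
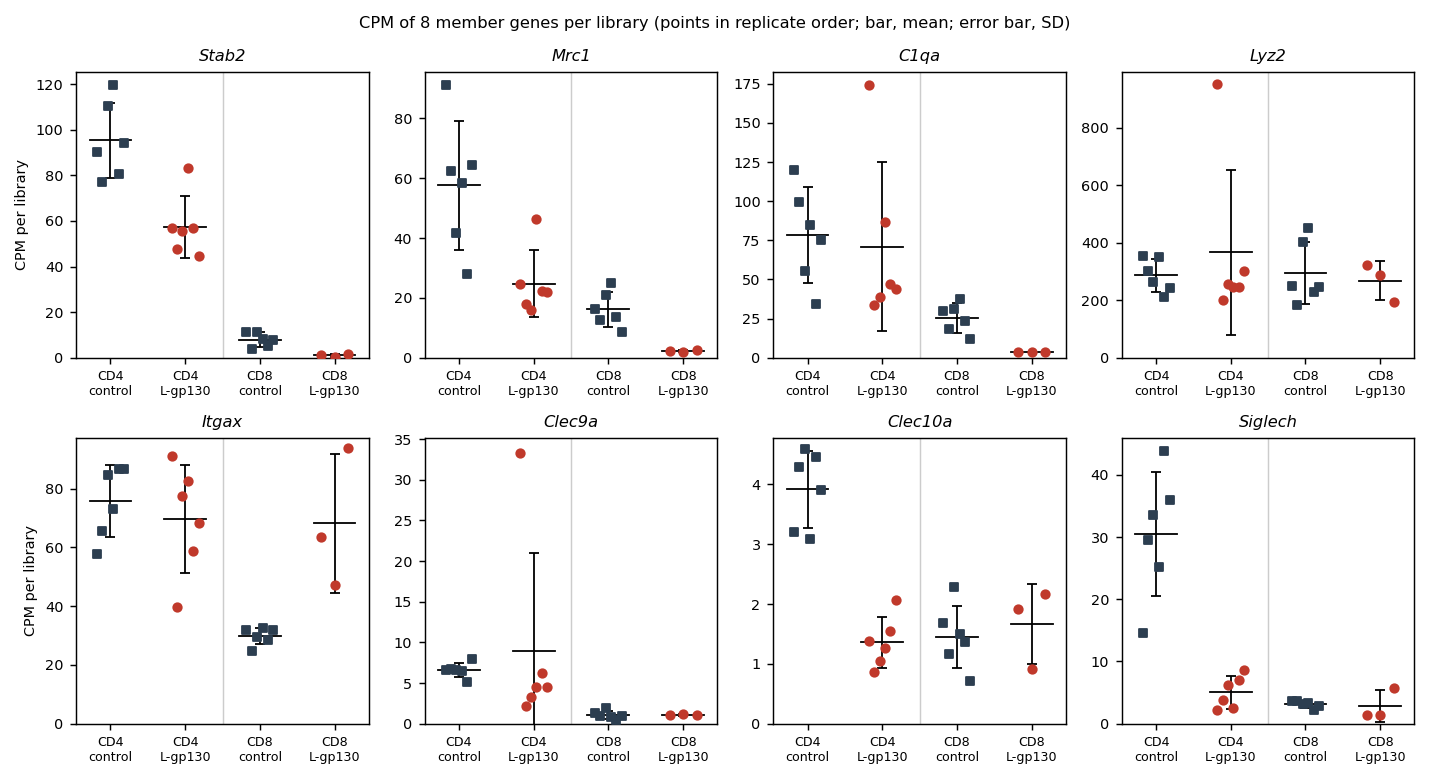
CPM of 8 member genes per library (y axes, linear, starting at 0) in the 4 groups (x axes), with the CD4 and CD8 tables normalised separately. Points are libraries, bars the mean and error bars the SD, not drawn below 0. Siglech lies below 9 CPM in all L-gp130 CD4 libraries and above 14 CPM in all control CD4 libraries, Itgax is higher in all 3 L-gp130 CD8 libraries than in the CD8 controls, and Lyz2 overlaps across groups apart from L-gp130 CD4 replicate 1.

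Salmon's split of reads between transcripts of a gene gave a further readout for 2 members, as a description with no test. For Stab2 the full-length transcript ENSMUST00000035288 (8228 bases) took 87.9 ± 6.99% of the gene's reads in control CD4 libraries (SD, n = 6) and 84.9 ± 7.40% in L-gp130 CD4 libraries (n = 6). In control CD8 libraries it took 49.9 ± 7.03% (n = 6), from 37.8 to 57.8%, and the transcript ENSMUST00000219341 (3502 bases) took 41.3 ± 10.4%. The L-gp130 CD8 libraries held 13 to 16 Stab2 reads each and allow no comparison of shares. For Tyrobp the transcript ENSMUST00000207982 (597 bases) took 94.0 ± 13.1% of the reads in control CD8 (n = 6) and 71.3 ± 5.87% in L-gp130 CD8 libraries (n = 3). Its share ran from 67.2 to 99.5% in control CD8 and from 64.7 to 75.9% in L-gp130 CD8 libraries, so the groups overlapped. In CD4 libraries it took 46.1 ± 13.1% in controls and 34.8 ± 10.7% in L-gp130 mice (n = 6 each), the rest going almost wholly to ENSMUST00000032800 (564 bases). Libraries were unstranded, and transcripts this alike are separated by few reads.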

How the data were processed

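Polyadenylated RNA of splenic CD4 and CD8 T cells was sequenced as unstranded read pairs, per the labels. Build GRCm38 and the tools edgeR 3.34.1, Salmon 1.5.2, cutadapt 3.4 and Trimmomatic 0.39 are named in the submitters' processing notes. The deposited gene tables, 1 for each selection, hold estimated counts. The deposited transcript tables, 1 for each library, hold TPM and estimated reads. Names came from GENCODE M21, which held 51115 of 51201 gene identifiers. Transcript reads were summed per gene, leaving out 694 unmatched transcripts (0.144 to 0.209% of reads). Rounded estimated counts were fitted with edgeR 4.0.16 (R 4.3.3; filterByExpr, TMM, robust quasi-likelihood F test, labelled sex as covariate), with p adjusted over all genes tested by Benjamini-Hochberg and a threshold of 0.05. CPM are TMM-scaled within each table. The SE is the absolute log2 fold change divided by the root of F. The fit was checked on simulated data. DESeq2 1.42.0, other scalings, filters and covariates were alternatives. Members and lists were chosen with earlier results of these data known. Values are given for all called members and the 2 most abundant of each list, and for up to 3 called genes per further list. Groups of 6 are mostly given by lowest, median and highest value.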

Additional observations from a re-analysis of the deposited data

Results flagged for a closer look

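In groups of 6 libraries, a sample whose gap to the next is large for the range of its group was looked for in each member. Of 100 gene and group pairs 17 had one, where the limit used gives about 5 in 100 for normally spread values. The CPM were not tested for such a spread and the pairs share libraries, so the 17 are not a test against that rate. In 15 of the 17 it was L-gp130 CD4 replicate 1, always as the highest. Its values against the range of the other 5 L-gp130 CD4 libraries were, for macrophage and phagocyte genes, 163 CPM for Cd5l (29.6 to 76.6), 69.2 CPM for Spic (11.2 to 30.2), 208 CPM for C1qb (34.4 to 83.5), 61.0 CPM for Cd68 (15.4 to 31.3), 20.2 CPM for Fcgr1 (1.72 to 5.16) and 8.81 CPM for Ms4a7 (1.51 to 3.51). For monocyte and broad myeloid genes they were 950.0 CPM for Lyz2 (200.2 to 301), 14.7 CPM for Cd14 (2.42 to 5.65), 41.6 CPM for Itgam (12.9 to 19.2), 203 CPM for Cybb (42.7 to 66.8), 52.5 CPM for Aif1 (5.05 to 20.1), 99.9 CPM for Tyrobp (26.3 to 43.3) and 124 CPM for Fcer1g (18.9 to 45.9). For the cross-presenting dendritic cell genes they were 31.3 CPM for Xcr1 (1.77 to 5.55) and 33.3 CPM for Clec9a (2.12 to 6.20). L-gp130 CD4 replicate 4 stood apart for Mrc1, at 46.5 CPM (15.8 to 24.7), and for Stab2, at 83.3 CPM (44.7 to 56.9).

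The genotype difference of 3 members differed between CD4 and CD8 libraries by the interaction test: Stab2 (log2 2.03), Clec10a (log2 -1.55) and Itgax (log2 -1.08).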

How the results depend on the processing

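The count of members called in CD4 libraries for genotype, 7 in the fit reported, was 11 with DESeq2 and 23 without L-gp130 CD4 replicate 1 and control CD4 replicate 5, and lay between 5 and 17 when each library was left out in turn. The 17 came without L-gp130 CD4 replicate 1. The 3 members called in the interaction became 10 with DESeq2, 8 without the sex covariate, 5 without those 2 libraries and 0 with the replicate block, and 0 to 5 with each library left out. Fits in which 1 member or none was called were those without L-gp130 CD4 replicates 2 or 5, control CD4 replicates 3, 5 or 6, control CD8 replicates 2, 5 or 6 (1 each) and L-gp130 CD8 replicate 1 (0), and the 5 came without L-gp130 CD4 replicate 1. Over all genes the interaction called 544, against 954 with DESeq2, 888 without the 2 libraries, 353 on the joined gene tables and 137 with the replicate block. Without 1 library the counts over all genes fell from 2836 to as few as 1411 in CD4 (without L-gp130 replicate 6) and from 2996 to as few as 1374 in CD8 (without L-gp130 replicate 1). The counts for CD8 libraries (16), control selection (29) and L-gp130 selection (24) stayed within 1.5 times under every alternative run, at 13 to 17, 27 to 28 and 20 to 26 with each library left out. With the replicate number as a block the 5 counts were 6, 16, 27, 20 and 0. In the CD4 and CD8 genotype fits that block joined L-gp130 with control mice, which are different animals. In the selection and interaction fits it joined same-numbered CD4 and CD8 libraries of a genotype. The block is thus not a paired test, and its counts show only how the calls move with that model. Control replicates 2 and 4 and L-gp130 replicates 2 and 3 differed between CD4 and CD8 libraries in labelled sex and in read sex. They are therefore different mice, and the block does not pair them. Control replicate 5 differed in labelled sex, but both libraries read male. For the other numbers the labels do not say whether the CD4 and CD8 libraries of a genotype share a mouse. Same-numbered libraries deviated together at r from -0.0159 to 0.135 in controls (2 of 6 best with their own number) and -0.0688 to 0.113 in L-gp130 mice (1 of 3). Between genotypes r ran from -0.206 to 0.17 in CD4 and -0.0744 to 0.166 in CD8 libraries. No call reversed. Of the members called, 3 of 7 (CD4), 13 of 16 (CD8), 27 of 29 (control selection), 19 of 24 (L-gp130 selection) and 0 of 3 (interaction) were called under every alternative in which they were tested. Where leaving out libraries changed a call, the cause was not tested. Clec4a4 (0 to 4 counts per CD8 library) and Cd300c (2 to 11) did not pass the filter on low counts there and were not tested for genotype.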

Other observations

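Genes of heme and iron handling other than the members moved in both directions. Of 10 tested in CD4 libraries 3 fell and 1 rose, and of 10 tested in CD8 libraries 3 fell and 2 rose. Tfrc, the transferrin receptor gene, rose in both (1.41 ± 0.391 and 1.30 ± 0.086, L-gp130 minus control). The part of erythroid RNA in these values was not tested. For Tfrc the groups overlapped in CD4 but not in CD8 libraries. Trf, the transferrin gene, fell in both (-1.38 ± 0.297 and -1.84 ± 0.301), as did Bach1, which encodes a heme-binding repressor of Hmox1 (-0.29 ± 0.065 and -0.60 ± 0.105). Slc11a1, a phagosomal metal transporter gene, fell in CD8 libraries (-1.36 ± 0.323), and Blvrb, which acts downstream of HMOX1, rose there (1.07 ± 0.264).

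Of 11 erythroid genes 0 were called by edgeR in CD4 libraries (4 higher at an unadjusted p under 0.05, and 1 higher with DESeq2), where their sum ran from 6786 to 39220 CPM in L-gp130 and from 4784 to 26930 CPM in control libraries. In CD8 libraries 4 rose, among them Car1 (1.59 ± 0.218), Klf1 (1.63 ± 0.251) and Rhag (3.10 ± 0.570), and the sum ran from 197 to 359 CPM in L-gp130 and from 93.1 to 746 CPM in control libraries. Of 9 neutrophil genes tested edgeR called 0 in either selection, with 3 higher in CD4 and 2 lower in CD8 libraries at an unadjusted p under 0.05, and DESeq2 called 0 and 2.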
